A study of Mus musculus with 4 samples.

Results

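Genes of the NRF2 response and of glutathione synthesis were followed in cultured de-differentiated fat (DFAT) cells and cultured stromal vascular fraction (SVF) cells of mouse white adipose tissue. The set held 9 of the 32285 genes counted: the NRF2 targets *Slc7a11*, *Gclc*, *Gclm*, *Txnrd1*, *Srxn1*, *Nqo1* and *Hmox1*, the gene of NRF2 itself (*Nfe2l2*) and the gene of its inhibitor (*Keap1*). They were chosen by symbol with the levels measured in these libraries already known, so their levels and ratios are a description and carry no test.

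NRF2 is a transcription factor that KEAP1 holds in the cytoplasm and hands to a ubiquitin ligase for breakdown. Oxidants and electrophiles modify KEAP1, NRF2 then builds up, pairs with a small MAF protein and binds antioxidant response elements in DNA. Its targets import cystine, make and recycle glutathione and thioredoxin, degrade heme and detoxify quinones. In fat, NRF2 is known for roles in redox balance and adipocyte differentiation.

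RNA of single cells was tagged in droplets (10x Genomics, 3′ ends) and sequenced in 4 libraries, 1 for each condition. The iWAT_DFAT and eWAT_DFAT libraries held DFAT cells grown from adipocytes of the inguinal and of the epididymal depot by ceiling culture, in which floating fat cells attach to the upper wall of a flask filled with medium so that it holds no air. The iWAT_SVF and eWAT_SVF libraries held cells that pelleted when the same kinds of tissue were digested and were then cultured; the study calls them adipose stem and progenitor cells. The mice were male C57BL/6J animals on chow for which no transgene or treatment was named, and their age and the number of animals per culture were not given in the sources used here. The ceiling step without air and the origin of the cells differed together between DFAT and SVF libraries and cannot be told apart. The comparisons address how DFAT cells differ from SVF cells of the same depot and how the depots differ within each kind of cell.

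Barcodes with 5000 to 75000 unique molecular identifiers (UMIs, which count transcripts rather than PCR copies), 200 to 7500 genes and under 10% mitochondrial UMIs were taken as cells. This left 7629 cells of iWAT_DFAT, 6464 of eWAT_DFAT, 7424 of iWAT_SVF and 6745 of eWAT_SVF, with median depths between 22111 and 27617 UMIs. Any pair of libraries shared 13 to 20 cell barcodes. At least 3 of 11 stromal markers were detected in 94.8% to 99.5% of the cells of a library, and at least 3 of 7 adipocyte markers in 0.0269% to 2.17%, with *Lep* at or under 3 UMIs in all 4 libraries. The eWAT_DFAT library stood apart in its summed stromal markers, at 2624 UMIs per 1000000 (CPM) against 7715 to 8565 CPM in the others. All 10 markers of the G2 and M phases were expressed in every library, and cells with 3 or more of them made up 53.7% of iWAT_DFAT, 65.0% of eWAT_DFAT, 57.9% of iWAT_SVF and 47.1% of eWAT_SVF. This call takes any UMI in cells that were not thinned, so a deeper cell passes it more easily. The summed level of these markers was 1007, 995, 1045 and 762 CPM in the same order, and so did not rank the libraries as the shares did. Since each condition had a single library, the spread from culture to culture is unknown. All intervals below are 95% intervals of counting error only.

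Promoter sequence was read for 7 of the 9 genes from RefSeq (GRCm38.p6), as the 250 bases that lead up to each annotated start, because NRF2 and its rivals act through short elements in such DNA. Each window was searched on both strands for the antioxidant response element core TGACNNNGC, for the variant core TGAGNNNGC, for the AP-1 site TGAGTCA, which can lie inside the variant core, and for TGATGCAA, an element of C/EBP and ATF factors that was added after the *Slc7a11* window had been read. The 4 windows below belong to target genes, hold a match and are shown 5′ to 3′ on the strand of the gene, with matches in capitals.

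Srxn1, chr2:152105274-152105523, plus strand: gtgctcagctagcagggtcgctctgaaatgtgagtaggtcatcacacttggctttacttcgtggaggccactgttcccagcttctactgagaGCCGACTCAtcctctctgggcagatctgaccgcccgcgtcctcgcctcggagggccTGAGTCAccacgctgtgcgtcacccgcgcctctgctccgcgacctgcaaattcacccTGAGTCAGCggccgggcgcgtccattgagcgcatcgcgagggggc
Txnrd1, chr10:82858956-82859205, plus strand: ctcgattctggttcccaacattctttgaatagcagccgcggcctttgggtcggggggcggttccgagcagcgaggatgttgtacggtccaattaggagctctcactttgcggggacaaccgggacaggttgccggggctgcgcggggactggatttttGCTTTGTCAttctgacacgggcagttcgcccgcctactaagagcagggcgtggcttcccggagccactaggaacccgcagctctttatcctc
Gclm, chr3:122245307-122245556, plus strand: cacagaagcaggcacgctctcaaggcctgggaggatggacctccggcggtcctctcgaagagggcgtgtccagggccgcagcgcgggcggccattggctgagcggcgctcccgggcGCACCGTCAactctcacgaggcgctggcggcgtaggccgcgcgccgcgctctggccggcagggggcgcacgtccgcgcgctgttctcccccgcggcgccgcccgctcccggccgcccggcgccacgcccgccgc
Slc7a11, chr3:50443614-50443863, minus strand: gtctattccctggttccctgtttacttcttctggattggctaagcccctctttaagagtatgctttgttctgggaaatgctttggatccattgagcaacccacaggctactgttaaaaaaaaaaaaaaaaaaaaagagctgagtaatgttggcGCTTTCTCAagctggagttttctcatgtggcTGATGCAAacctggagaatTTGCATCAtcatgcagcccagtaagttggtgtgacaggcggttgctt

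The *Srxn1* window held TGAGTCAGC, in which an AP-1 site lies inside the variant core, between 45 and 37 bases before its end, a further TGAGTCA between bases 102 and 96, and GCCGACTCA, the variant core on the other strand, between bases 158 and 150. The *Txnrd1* and *Gclm* windows each held the response element core on the other strand, as GCTTTGTCA and GCACCGTCA, and the windows of the other 2 annotated *Txnrd1* starts held no match. The *Slc7a11* window held GCTTTCTCA, the variant core on the other strand, and TGATGCAA facing TTGCATCA. The *Nfe2l2* window held TGACTCCGC, between 240 and 232 bases before its end, and neither the *Nqo1* nor the *Keap1* window held any of these letters. Of all 32851 promoter windows of this length, 10.2% held TGACNNNGC, 14.4% TGAGNNNGC, 4.46% TGAGTCA and 0.791% TGATGCAA, each counted on either strand. A match is a description of the letters and was not tied to binding here.

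The genes of cystine import and glutathione synthesis came first. *Slc7a11* (chr3:49892526-50443614, minus strand) encodes the cystine subunit of the exchanger that brings in cystine for glutathione. It was at 160 CPM (158 to 162) in iWAT_DFAT, 253 (251 to 255) in eWAT_DFAT, 18.8 (18.2 to 19.5) in iWAT_SVF and 16.3 (15.8 to 16.9) in eWAT_SVF. Both DFAT libraries lay above both SVF libraries, by 8.49-fold (8.21 to 8.79) in iWAT and 15.5-fold (14.9 to 16.1) in eWAT, the widest gap among the 9 genes. The file of iWAT_SVF carries another software version in its header than the other 3, and the effect of this on its ratios was not tested.

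*Gclc* (chr9:77754535-77794485, plus strand), the catalytic subunit of the ligase that joins glutamate to cysteine, was at 134 CPM in iWAT_DFAT, 149 in eWAT_DFAT, 63.4 in iWAT_SVF and 44.6 in eWAT_SVF. The DFAT libraries were again the 2 highest, by 2.11-fold (2.06 to 2.15) in iWAT and 3.35-fold (3.27 to 3.43) in eWAT. *Gclm* (chr3:122245557-122270732, plus strand), the modifier subunit of the same enzyme, was at 240 CPM in iWAT_DFAT, 684 in eWAT_DFAT, 229 in iWAT_SVF and 208 in eWAT_SVF. So 1 library stood out for *Gclm*: eWAT_DFAT was 3.29-fold (3.25 to 3.32) above eWAT_SVF, while iWAT_DFAT was 1.05-fold (1.04 to 1.06) above iWAT_SVF, a log2 ratio of 0.07 that was -0.01 with edgeR's TMM scaling. The antisense gene *Gm17494* overlaps *Gclm* and reached at most 8.41 CPM.

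**Figure D1:**
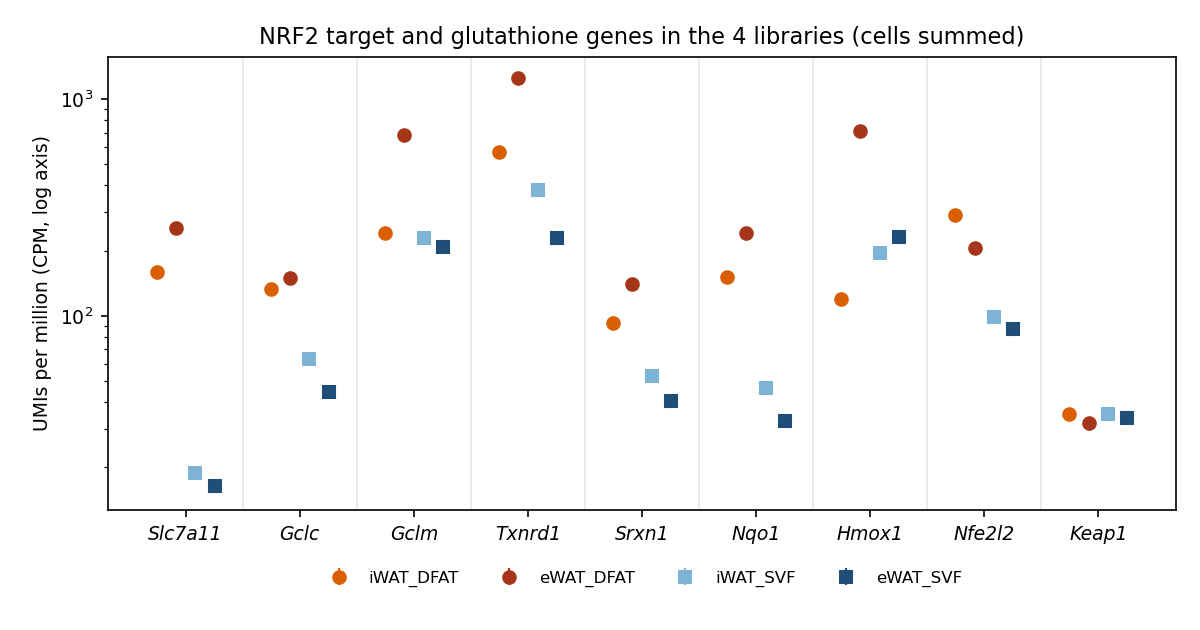
Level of each of the 9 genes in the 4 libraries (UMIs per 1000000 over all cells of the library, log axis); circles are DFAT libraries, squares SVF libraries, and the 95% Poisson intervals are smaller than the symbols. *Slc7a11* shows the widest gap between DFAT and SVF libraries, *Gclm* and *Hmox1* a single high library (eWAT_DFAT, 684 and 715), and *Keap1* values between 32.1 and 35.4.

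Next came the enzymes of the thioredoxin branch. *Txnrd1* (chr10:82833951-82897712, plus strand) encodes the cytosolic thioredoxin reductase. It was at 571 CPM in iWAT_DFAT, 1254 in eWAT_DFAT, 380 in iWAT_SVF and 229 in eWAT_SVF. All 4 libraries differed, and the gap between DFAT and SVF cells was 5.47-fold (5.41 to 5.52) in eWAT against just over 1.5-fold (1.49 to 1.52) in iWAT. *Eid3* lies within *Txnrd1* on the same strand and *Gm38560* on the other, at no more than 12.8 and 12.4 CPM. *Srxn1* (chr2:152105516-152111376, plus strand), which repairs over-oxidized peroxiredoxins, was at 92.6 CPM in iWAT_DFAT, 140 in eWAT_DFAT, 52.6 in iWAT_SVF and 40.6 in eWAT_SVF. It kept the order eWAT_DFAT, iWAT_DFAT, iWAT_SVF, eWAT_SVF that *Slc7a11*, *Gclc*, *Gclm*, *Txnrd1* and *Nqo1* also had.

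*Nqo1* (chr8:107388225-107403206, minus strand), the quinone reductase that is the common readout of NRF2 activity, was at 151 CPM in iWAT_DFAT, 241 in eWAT_DFAT, 46.3 in iWAT_SVF and 32.7 in eWAT_SVF. The folds of DFAT over SVF were 3.26 (3.18 to 3.34) in iWAT and 7.35 (7.16 to 7.54) in eWAT. *Hmox1* (chr8:75093621-75100589, plus strand) encodes the inducible heme oxygenase, which frees iron and biliverdin from heme. It was at 119 CPM in iWAT_DFAT, 715 in eWAT_DFAT, 195 in iWAT_SVF and 231 in eWAT_SVF. *Hmox1* departed from the other targets: iWAT_DFAT was its lowest library, 1.64-fold (1.61 to 1.67) below iWAT_SVF, and eWAT_DFAT its highest, 3.09-fold (3.06 to 3.12) above eWAT_SVF.

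*Nfe2l2* (chr2:75675513-75704641, minus strand) was at 291 CPM in iWAT_DFAT, 206 in eWAT_DFAT, 98.8 in iWAT_SVF and 87.4 in eWAT_SVF. Its transcript was 2.95-fold (2.90 to 3.00) higher in DFAT than in SVF cells of iWAT and 2.35-fold (2.31 to 2.40) higher in those of eWAT. Between the DFAT libraries it ran against the targets: it was 1.42-fold (1.40 to 1.44) higher in iWAT_DFAT, the library with the lower level of all 7 targets. *Keap1* (chr9:21229730-21239361, minus strand) was at 35.4 CPM (34.5 to 36.2) in iWAT_DFAT, 32.1 (31.3 to 32.9) in eWAT_DFAT, 35.1 (34.3 to 35.9) in iWAT_SVF and 33.9 (33.1 to 34.7) in eWAT_SVF. The highest and lowest of these differed by 1.10-fold, and the intervals of iWAT_DFAT, iWAT_SVF and eWAT_SVF overlapped with their neighbours. For the other 8 genes no counting intervals of neighbouring libraries overlapped. NRF2 is set largely at the level of its protein, which was not measured.

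Counts of genes past a fold of 1.5 were read beside those of all genes that reached 5 CPM in at least 1 of the 2 libraries. Of the 9 genes, 6 were at least 1.5-fold higher in iWAT_DFAT than in iWAT_SVF, where 18.4% of 10426 genes were, and 1 (*Hmox1*) was at least 1.5-fold lower, where 10.1% were. Of the 6, *Txnrd1* stood right at the limit, and 6 of the 10 other ways of making the ratios left it below. In eWAT 8 of the 9 were at least 1.5-fold higher in DFAT cells, against 15.0% of 10298 genes, and 0 lower, against 13.1%. Between the DFAT libraries 0 of the 9 were at least 1.5-fold higher in iWAT_DFAT, against 17.6% of 10384 genes, and 6 were lower, against 9.10%. Between the SVF libraries 1 (*Txnrd1*, 1.66-fold, 1.64 to 1.68) was higher in iWAT_SVF, against 7.25% of 10135 genes, and 0 lower, against 7.44%. Since the 9 genes were picked with these levels known, nothing is read from their counts against these shares.

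**Figure D2:**
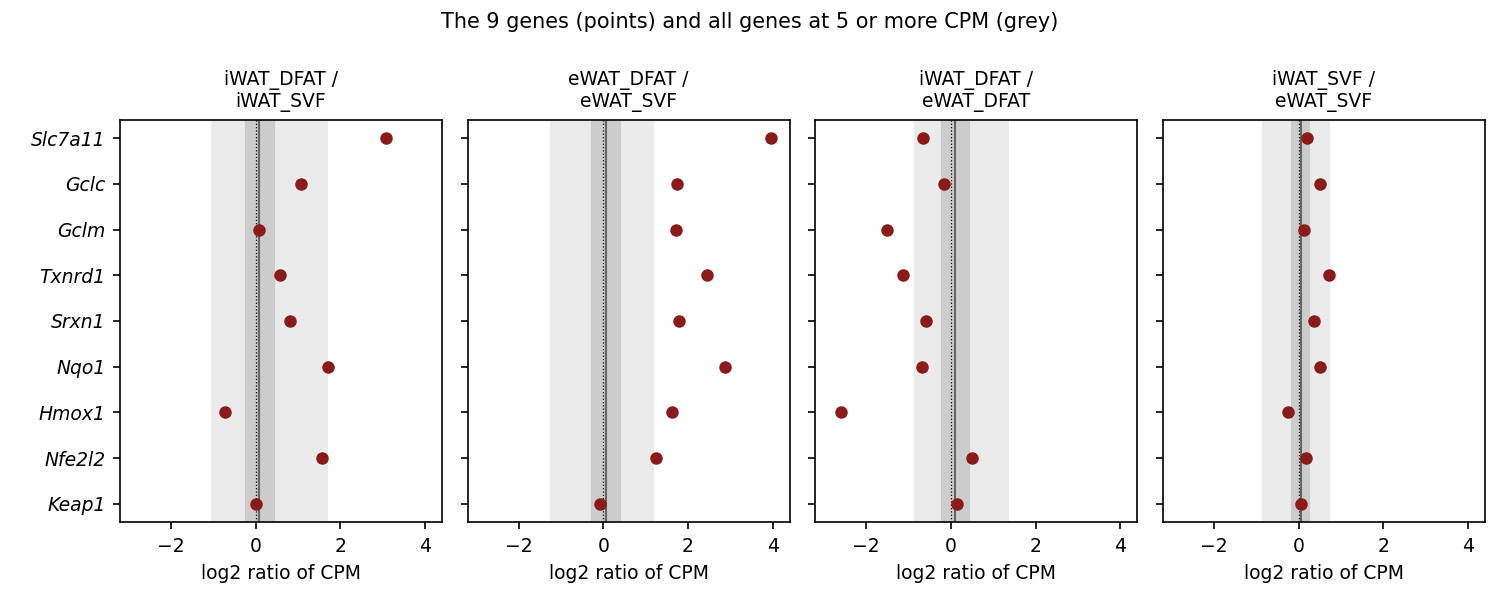
log2 ratio of CPM for the 9 genes in the 4 comparisons (points; 95% counting intervals are smaller than the points), over the middle 90% (light grey), the middle 50% (dark grey) and the median (line) of all genes that reached 5 CPM. In eWAT all points but *Keap1* lie right of the light band, which ends at 1.18, and between the DFAT libraries *Gclm*, *Txnrd1* and *Hmox1* lie left of it. For iWAT_DFAT over iWAT_SVF the band ends at 1.68, and only *Slc7a11* (3.09) and, barely, *Nqo1* (1.70) lie outside it.

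The depots were ordered differently in the DFAT and SVF libraries. All 7 targets were lower in iWAT_DFAT than in eWAT_DFAT, with log2 ratios from -2.59 (*Hmox1*) to -0.16 (*Gclc*), so that *Hmox1* was 6.01-fold (5.92 to 6.09), *Gclm* 2.84-fold (2.81 to 2.88) and *Txnrd1* 2.20-fold (2.18 to 2.21) higher in eWAT_DFAT. In SVF cells 6 of the 7 were higher in iWAT, with log2 ratios from 0.14 (*Gclm*) to 0.73 (*Txnrd1*). Only *Hmox1* was lower in iWAT_SVF, at -0.25, which became 0.10 without the cells that held G2 and M phase markers. The middle 50% of all genes ran from -0.15 to 0.24 between the SVF libraries, with a median of 0.05, and so held *Gclm* and *Slc7a11* (0.21). Between the DFAT libraries it ran from -0.22 to 0.42, with a median of 0.09, and held *Gclc*. For these genes the order of the depots is no wider than that of ordinary genes. The 2 DFAT over SVF comparisons share no library, and neither do the 2 depot comparisons, but each library enters 1 of each kind.

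Cell type and cell cycle were then followed beside these levels. In cells with 3 or more stromal markers and under 3 markers of each other type, *Slc7a11* was 8.44-fold higher in DFAT than in SVF cells of iWAT and 15.1-fold higher in those of eWAT, *Txnrd1* 5.63-fold and *Nqo1* 7.88-fold higher in eWAT. *Hmox1* kept its opposed ratios there, with folds of 0.604 in iWAT and 3.28 in eWAT. Cells with 3 or more endothelial markers numbered 24 in iWAT_DFAT, 152 in eWAT_DFAT, 62 in iWAT_SVF and 157 in eWAT_SVF, and those with 3 or more mesothelial markers 0, 73, 1 and 559. The G2 and M phase markers moved with some of the targets. In iWAT_DFAT *Txnrd1* was at 687 CPM in the 4096 cells with these markers and at 387 in the 3533 without, and *Nqo1* at 178 and 108. In eWAT_DFAT *Txnrd1* was at 1307 and 1128 and *Hmox1* at 669 and 824. Without the cells that carried these markers, the fold of iWAT_DFAT over iWAT_SVF was 7.95 for *Slc7a11*, 2.52 for *Nqo1* and 1.25 for *Txnrd1*, which then fell short of 1.5-fold, and the log2 ratio of *Hmox1* was -1.25. In the same cells of eWAT the folds were 19.4, 8.73 and 5.62 for the first 3 genes.

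Markers of other cells were summed beside the targets. The 7 adipocyte markers came to 25.1 CPM in iWAT_DFAT, 75.3 in eWAT_DFAT, 2.23 in iWAT_SVF and 3.65 in eWAT_SVF. They were thus higher in the DFAT library of each depot, as the targets were other than *Hmox1* and, in iWAT, *Gclm*. The log2 ratio of *Gclm* in iWAT was 0.07 and changed sign under some other settings. The 9 immune markers, of which *Cd3e* was at or under 3 UMIs in every library, came to 19.2, 16.8, 20.2 and 63.6 CPM in the same order, with 1, 2, 2 and 6 of the 9 over 1 CPM. The 7 glial markers came to 85.7, 84.4, 55.3 and 35.5 CPM, with 4, 1, 6 and 1 of the 7 over 1 CPM, so that the sums of both eWAT libraries rested on 1 gene. The part of these cells in the levels of the targets was not tested beyond the values without them given above.

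Levels also followed the depth of a cell. In iWAT_DFAT *Slc7a11* was at 70.2 CPM in cells with 5000 to 15000 UMIs and at 248 CPM in cells with over 40000, a fold of 3.54. The same ratio was 3.22 for *Txnrd1*, 2.80 for *Nqo1*, 2.14 for *Gclc*, 2.10 for *Hmox1*, 2.01 for *Gclm* and 1.45 for *Srxn1*, against 1.12 for *Nfe2l2* and 1.07 for *Keap1*. In eWAT_DFAT it was 2.45 for *Slc7a11*, 2.05 for *Hmox1* and 2.04 for *Txnrd1*, and between 1.39 and 1.84 for the other 4 targets. In the SVF libraries it lay between 0.74 and 1.93 over the 9 genes, a range that holds those 4 values and that of *Srxn1* in iWAT_DFAT. In both DFAT libraries the deeper cells gave a larger share of their UMIs to each of the 7 targets. The same held in both SVF libraries for every target but *Nqo1*, with ratios from 1.10 to 1.93. For *Nqo1* the ratio was 0.98 in iWAT_SVF and 0.74 in eWAT_SVF. At one depth the libraries still kept their order for *Slc7a11*: cells with 15000 to 25000 UMIs were at 113 CPM in iWAT_DFAT, 207 in eWAT_DFAT, 18.3 in iWAT_SVF and 14.8 in eWAT_SVF. For *Txnrd1* the values in these cells were 384, 1017, 299 and 219 CPM.

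Detection in single cells was compared after each cell had been thinned at random to 5000 UMIs, which kept every cell. *Slc7a11* had a UMI in 34.3% (33.2 to 35.4, exact binomial) of iWAT_DFAT cells, 44.1% (42.9 to 45.4) of eWAT_DFAT, 8.18% (7.56 to 8.82) of iWAT_SVF and 7.06% (6.46 to 7.69) of eWAT_SVF cells; without thinning the shares were 59.7%, 74.0%, 31.6% and 28.1%. *Hmox1* was found in 33.6%, 77.1%, 45.9% and 51.4% of thinned cells in the same order, with iWAT_DFAT again the lowest. *Nfe2l2* was found in 71.8%, 58.5%, 37.5% and 34.9%, and *Keap1* in 15.7%, 13.8%, 15.7% and 15.1%. *Gclm* was found in 54.9%, 84.1%, 59.3% and 56.7%, so that in iWAT it had a UMI in fewer DFAT than SVF cells while its summed level was 1.05-fold higher. No cell type that should lack these genes was at hand, and in cells with 3 or more endothelial markers, whose median depths were 20657.5, 11840.5, 16527 and 16407 UMIs, *Slc7a11* was found in 20.8%, 14.5%, 4.84% and 3.82% after thinning. In barcodes with 1 to 100 UMIs, which hold mostly free RNA, *Slc7a11* was at 152, 235, 13.3 and 11 CPM, against 160, 253, 18.8 and 16.3 CPM in the cells.

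The UMIs of *Slc7a11* were unevenly spread over cells. The 10% of cells with the most UMIs of it, not scaled for depth, held 56.6% of its UMIs in iWAT_DFAT, 52.6% in eWAT_DFAT, 55.2% in iWAT_SVF and 60.9% in eWAT_SVF. For *Gclc* these shares were 58.0%, 46.7%, 42.3% and 45.2%. For *Nfe2l2* they were 24.8%, 26.3%, 28.2% and 28.0%. In thinned iWAT_DFAT cells the variance of the UMI count over its mean was 2.90 for *Slc7a11*, 3.73 for *Gclc*, 3.39 for *Txnrd1*, 1.25 for *Nfe2l2* and 1.02 for *Keap1*, where random sampling from equal cells gives a ratio near 1. The shares grow as a gene gets rarer and the ratios grow with its level, so neither ranks the genes.

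The 7 targets were then counted together in each thinned cell. The median cell had a UMI of 3 of them in iWAT_DFAT, 4 in eWAT_DFAT, 2 in iWAT_SVF and 2 in eWAT_SVF. All 7 were seen in 2.39% of iWAT_DFAT cells (182 cells), 9.03% of eWAT_DFAT cells (584 cells), 7 iWAT_SVF cells and 6 eWAT_SVF cells. At the other end, 0 or 1 target was seen in 19.4%, 4.46%, 22.7% and 28.2% of cells in the same order. The eWAT_DFAT library thus had few cells with 0 or 1 target, while iWAT_DFAT held nearly as many cells with 0 or 1 target as iWAT_SVF did.

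Summed over the 7 targets without thinning, the median cell was at 879 CPM in iWAT_DFAT, 2735 in eWAT_DFAT, 777 in iWAT_SVF and 653 in eWAT_SVF. The 10th and 90th percentiles of cells were 354 and 2784 CPM in iWAT_DFAT, 867 and 6118 in eWAT_DFAT, 364 and 1680 in iWAT_SVF, and 309 and 1395 in eWAT_SVF. The lower ends of iWAT_DFAT and iWAT_SVF nearly coincided and their upper ends were far apart. Accordingly 57.1% of iWAT_DFAT cells lay above the iWAT_SVF median, while 94.0% of eWAT_DFAT cells lay above the eWAT_SVF median. Of the eWAT_DFAT cells 89.7% lay above the iWAT_DFAT median.

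**Figure D3:**
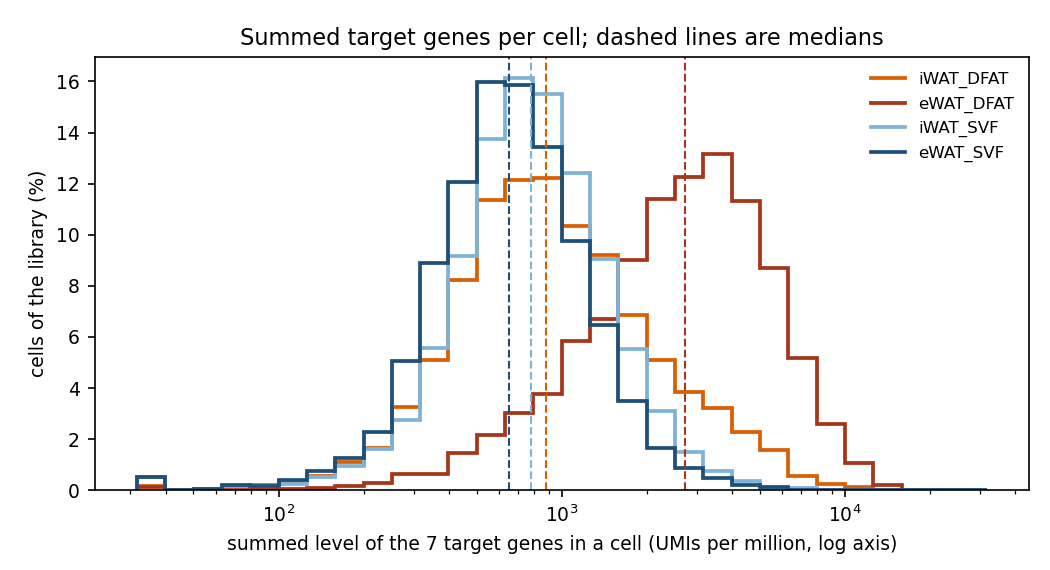
Spread over cells of the summed level of the 7 NRF2 target genes (UMIs per 1000000 of the cell, log axis) as the share of cells in each bin, 1 line per library, with dashed lines at the medians and cells without a target UMI in the leftmost bin. The eWAT_DFAT curve lies to the right of the others, with a median of 2735, and the iWAT_DFAT curve peaks near the SVF curves (medians 879, 777 and 653) but has a longer right side.

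Cells rich in *Txnrd1*, chosen because most cells of each library held a UMI of it, were compared with the lower 50% of cells by the same gene. In iWAT_DFAT the top 10%, 762 cells, had 6.48-fold more *Slc7a11*, 6.96-fold more *Nqo1*, 4.62-fold more *Gclc*, 4.03-fold more *Gclm* and 3.95-fold more *Hmox1* as CPM than the lower 50%. In eWAT_DFAT these folds were 5.51, 3.95, 2.99, 2.94 and 2.14, and in both SVF libraries they lay between 1.87 and 2.70. *Srxn1* was ordered the other way between the DFAT libraries, with a fold of 3.07 in iWAT_DFAT and 3.44 in eWAT_DFAT. *Nfe2l2* differed by 1.13-fold in iWAT_DFAT, 1.57-fold in eWAT_DFAT, 1.13-fold in iWAT_SVF and 1.46-fold in eWAT_SVF, and *Keap1* by 1.18-fold in eWAT_DFAT and by less in iWAT_DFAT. So the other targets were higher in *Txnrd1*-rich cells of every library. The median depth of the top 10% against the lower 50% was 30227.5 against 19131.5 UMIs in iWAT_DFAT, 31261 against 24002.5 in eWAT_DFAT, 29783.5 against 22737.5 in iWAT_SVF and 27078 against 26753 in eWAT_SVF. Cells with 3 or more G2 and M phase markers made up 80.1% against 40.5%, 70.6% against 56.4%, 75.6% against 47.5% and 64.5% against 39.0% in the same order. In eWAT_DFAT cells with 3 or more stromal markers made up 97.8% of the top 10% against 91.5% of the lower 50%. Depth, the share of cells with phase markers and, in eWAT_DFAT, that of stromal cells moved with these folds, and their part was not tested.

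Correlations of log counts over single cells describe the same pattern, with cells of 1 library sharing its free RNA and its depth range. After thinning, the median Pearson r over the 21 pairs of targets was 0.22 in iWAT_DFAT (7629 cells), 0.32 in eWAT_DFAT (6464), 0.08 in iWAT_SVF (7424) and 0.06 in eWAT_SVF (6745). The pairs ranged from 0.16 to 0.37 in iWAT_DFAT and from 0.15 to 0.44 in eWAT_DFAT, with *Txnrd1* and *Nqo1* highest in the first and *Gclm* and *Txnrd1* in the second. In the SVF libraries pairs ranged from 0.01 to 0.18, highest for *Gclm* and *Txnrd1* in iWAT_SVF (0.17) and *Gclm* and *Hmox1* in eWAT_SVF (0.18). Several targets had few UMIs per thinned SVF cell, and nothing is read from these low values. *Nfe2l2* had r between -0.01 and 0.08 with the targets in iWAT_DFAT and between 0.07 and 0.20 in eWAT_DFAT. In iWAT_SVF its r lay between 0.03 and 0.06 and in eWAT_SVF between -0.02 and 0.07. *Keap1* lay between -0.02 and 0.05 in all 4 libraries. Without thinning the 4 medians over pairs of targets were 0.38, 0.48, 0.18 and 0.16. The median r of *Nfe2l2* with the targets was then 0.10 in iWAT_DFAT, 0.31 in eWAT_DFAT, 0.13 in iWAT_SVF and 0.14 in eWAT_SVF. In the SVF libraries it thus came near that of the pairs of targets. In thinned cells without G2 and M phase or other type markers, a choice made after the data had been seen, the medians over pairs of targets were 0.18, 0.31, 0.08 and 0.05. A gene with more UMIs can reach a higher r, so the values of DFAT and SVF libraries are not on equal footing.

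**Figure D4:**
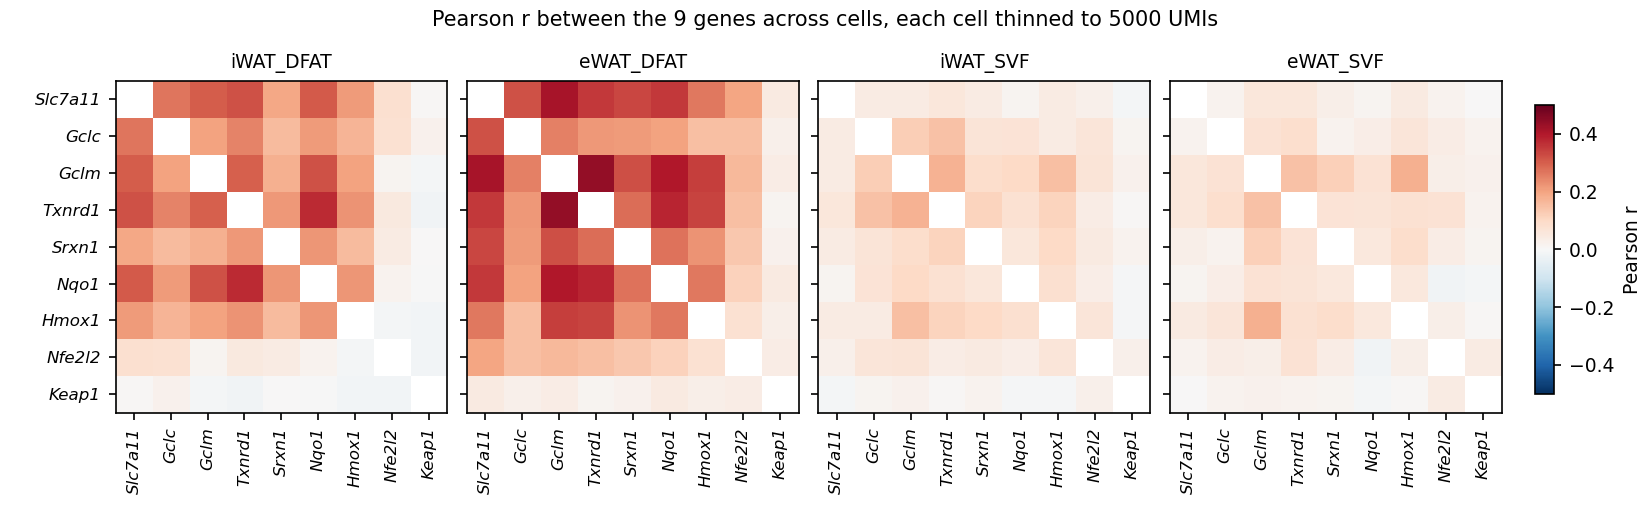
Pearson r over cells between the 9 genes in each library, from log counts of cells thinned to 5000 UMIs (colour scale; 1 panel per library). The 7 targets form a block in both DFAT panels, with medians of 0.22 and 0.32, and the SVF panels are pale. The row of *Keap1* is pale in every panel, and that of *Nfe2l2* in all but the eWAT_DFAT panel, where it reaches 0.20.

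The genes that followed each target most closely were ranked by the lowest of the 4 libraries' r, on log counts per 10000 UMIs without thinning, among about 5119 genes. *Slc7a11* was nearest to *Txnrd1* (r 0.13 to 0.48) and to *Abcc1*, a pump that exports glutathione conjugates (0.13 to 0.44). *Gclc*, *Gclm* and *Srxn1* each had *Txnrd1* or *Gclm* among their nearest genes, and *Gclm* also had *Cbr3*, a carbonyl reductase (0.24 to 0.64). *Nqo1* was nearest to *Esd*, an esterase that acts on S-formylglutathione (0.24 to 0.64), *Blvrb*, a biliverdin reductase (0.20 to 0.66), and *Ftl1*, the ferritin light chain (0.19 to 0.70). *Hmox1* was nearest to *Ftl1* (0.33 to 0.54) and *Gclm* (0.31 to 0.50). Genes outside the lists were also among the nearest: *Vegfa* for *Slc7a11* (0.13 to 0.24), *Pvt1* for *Gclc* (0.19 to 0.22) and *Ncl*, which encodes nucleolin, for *Txnrd1* (0.31 to 0.44), whose other nearest genes were *Gclm* (0.32 to 0.61) and *Abcc1* (0.30 to 0.48). *Nfe2l2* had *Tgfbr3*, a TGF-β co-receptor (0.18 to 0.30), and *Slit3*, a secreted guidance factor (0.17 to 0.30), among its nearest genes, neither of them in the lists used here, and the 3 nearest to *Keap1* reached at most 0.12. The sum of the 7 targets was nearest to *Esd* (0.29 to 0.62), *Pgd* of the pentose phosphate pathway (0.29 to 0.58), *Ftl1* (0.27 to 0.67) and *Cbr3* (0.26 to 0.63). The other 6 of its 10 nearest genes were *Abcc1* (0.25 to 0.48), the chaperone genes *Hspd1* (0.25 to 0.44) and *Hsp90aa1* (0.20 to 0.43), *Tomm20* of mitochondrial import (0.21 to 0.36), *Rtn4* of the endoplasmic reticulum (0.22 to 0.52) and *Cacybp* (0.21 to 0.39).

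The other genes of the pathway were taken from lists by function. Among 9 partners and regulators of NRF2, 2 were at least 1.5-fold higher in iWAT_DFAT than in iWAT_SVF and 0 lower, where 18.4% and 10.1% of all genes were. In eWAT 2 were higher and 0 lower, where 15.0% and 13.1% of all genes were. *Bach1*, a repressor that competes with NRF2 for its sites, was at 155 CPM in iWAT_DFAT, 41.9 in eWAT_DFAT, 38.0 in iWAT_SVF and 34.4 in eWAT_SVF. It was thus 4.07-fold (3.96 to 4.17) higher in iWAT_DFAT than in iWAT_SVF, and the other 3 libraries lay between 34.4 and 41.9 CPM. *Cul3*, the scaffold of the ligase that KEAP1 serves, was at 135, 75.4, 105 and 86.0 CPM. *Maff*, a small MAF partner, was at 39.9, 66.1, 24.2 and 29.9 CPM, higher in both DFAT libraries.

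The glutathione genes outside the set were read beside the share of all genes. Of the 16 glutathione genes that reached 5 CPM, out of 19, 3 were at least 1.5-fold higher and 3 lower in iWAT_DFAT than in iWAT_SVF, where 18.4% of all genes were higher and 10.1% lower, and 3 higher and 5 lower in eWAT, where 15.0% and 13.1% were, with medians of -0.07 and -0.30 on the log2 scale against 0.09 and 0.07 for all genes. *Cth*, which makes cysteine from cystathionine, was at 3.05 CPM in iWAT_DFAT, 3.49 in eWAT_DFAT, 15.1 in iWAT_SVF and 16.4 in eWAT_SVF, opposite to the cystine importer *Slc7a11*. *Ggt5*, which cleaves extracellular glutathione conjugates, was at 22.0 CPM in iWAT_DFAT against 1.08 to 8.21 in the other libraries. *Gpx3*, the secreted glutathione peroxidase, was at 97.8, 37.6, 89.3 and 171 CPM. Of the glutathione transferases 7 of 15 were higher and 3 lower in iWAT, and 6 of 16 higher and 6 lower in eWAT, counts that include near-identical copies such as *Gstp1* whose reads may be split. *Gsta3* was at 47.8, 106, 3.84 and 50.1 CPM, so that iWAT_SVF stood apart, and *Gstt1* at 20.9, 3.34, 10.0 and 16.4 CPM.

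The thioredoxin and NADPH branches were read next. Of 11 thioredoxin and peroxiredoxin genes 1 was at least 1.5-fold higher and 1 lower in iWAT_DFAT than in iWAT_SVF, where 18.4% and 10.1% of all genes were. In eWAT 3 were higher and 0 lower, where 15.0% and 13.1% of all genes were. *Prdx1*, a peroxiredoxin that *Srxn1* repairs, was at 1467 CPM in iWAT_DFAT, 2739 in eWAT_DFAT, 902 in iWAT_SVF and 1027 in eWAT_SVF. *Txnip*, an inhibitor of thioredoxin, was at 8.44 CPM in iWAT_DFAT against 46.7, 28.9 and 56.4 in the others. Of 7 genes of NADPH supply, 3 were higher and 0 lower in each depot, beside the same shares of all genes. *G6pdx*, which opens the pentose phosphate pathway, was at 80.0, 79.8, 44.3 and 33.2 CPM, and *Pgd*, a later step, at 250, 264, 131 and 115 CPM.

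Of 12 genes of detoxification and other NRF2 targets, 6 were at least 1.5-fold higher and 0 lower in iWAT_DFAT than in iWAT_SVF, where 18.4% and 10.1% of all genes were. In eWAT 6 were higher and 2 lower, where 15.0% and 13.1% of all genes were. *Abcc4*, an efflux pump, was at 72.5 CPM in iWAT_DFAT, 120 in eWAT_DFAT, 13.9 in iWAT_SVF and 11.9 in eWAT_SVF, which made 5.21-fold (5.01 to 5.43) in iWAT and 10.1-fold (9.67 to 10.5) in eWAT. *Ugdh*, which makes UDP-glucuronate, was at 365, 196, 86.7 and 74.4 CPM. Of 8 heme and iron genes, 3 were higher in iWAT_DFAT and 2 in eWAT_DFAT than in their SVF counterparts, and 0 lower, beside the same shares of all genes. *Blvrb* was at 392, 470, 224 and 223 CPM, so unlike *Hmox1* it was higher in both DFAT libraries, and *Fth1*, the ferritin heavy chain, was at 10127, 9997, 4689 and 6878 CPM. *Slc48a1*, a heme transporter, was at 49.9, 114, 71.9 and 118 CPM, lowest in iWAT_DFAT as *Hmox1* was.

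*Slc7a11* is also a known target of ATF4, the factor of the amino acid response, so 9 genes of that response were read beside it. Of these, 6 were at least 1.5-fold lower and 1 higher in DFAT than in SVF cells in iWAT, where 10.1% and 18.4% of all genes were. In eWAT 6 were lower and 1 higher, where 13.1% and 15.0% of all genes were. The median log2 ratio of the 9 was -1.34 in iWAT and -0.93 in eWAT, against 0.09 and 0.07 for all genes. *Trib3*, a pseudokinase induced by ATF4, was at 5.25 CPM in iWAT_DFAT, 3.87 in eWAT_DFAT, 37.0 in iWAT_SVF and 29.6 in eWAT_SVF, and *Phgdh*, the first enzyme of serine synthesis, at 59.6, 106, 278 and 336 CPM. The part of ATF4 in the level of *Slc7a11* was not tested. The lists were drawn up with earlier results of these libraries known, and all counts rest on 1 library per condition.

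**Figure D5:**
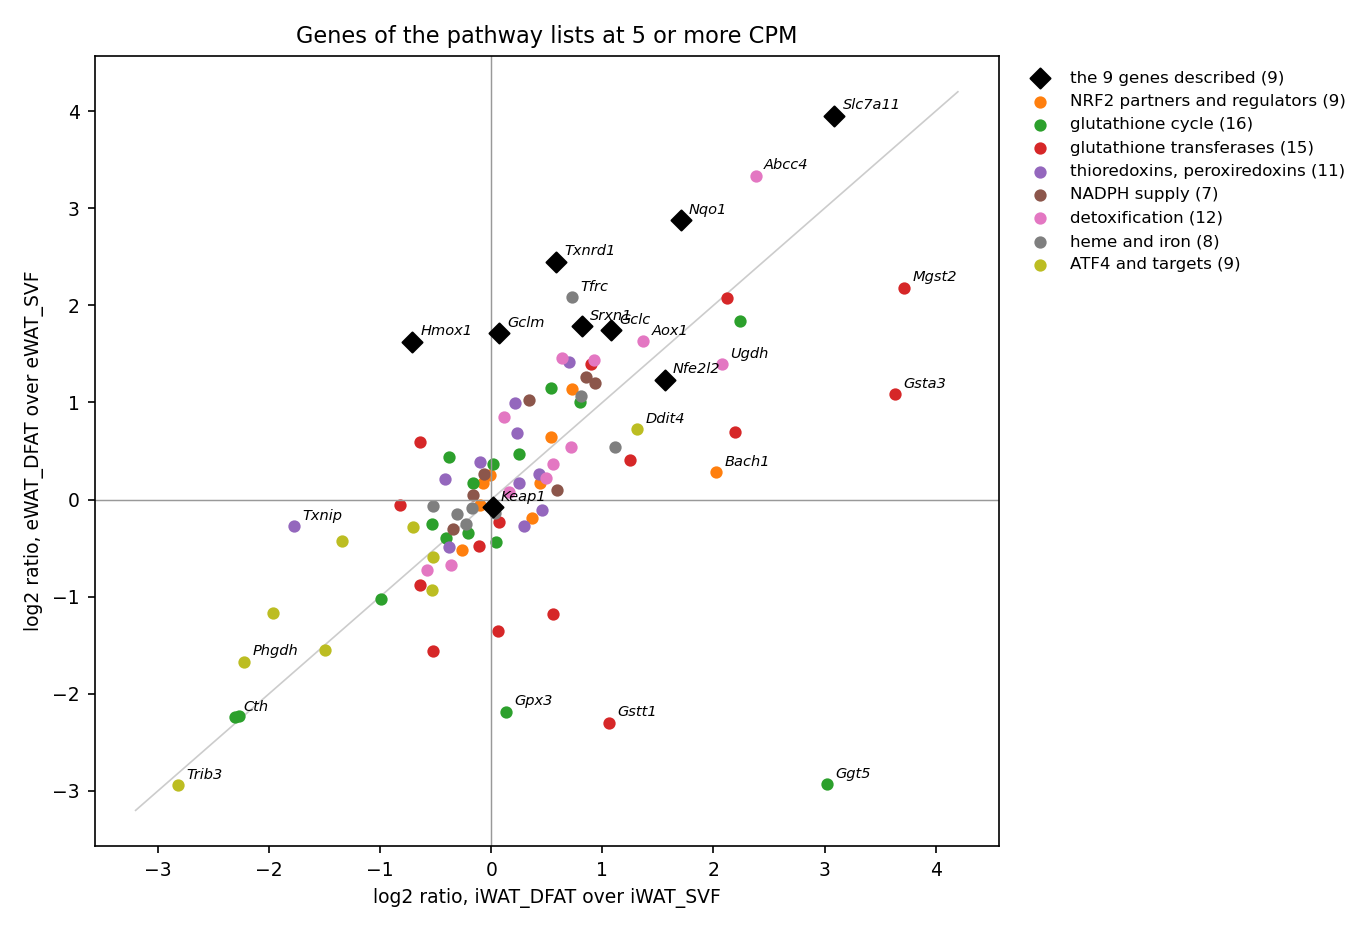
log2 ratio of DFAT over SVF in iWAT (horizontal) against eWAT (vertical), 1 point per gene at 5 or more CPM in both comparisons, coloured by list. *Slc7a11* lies at the upper right (3.09, 3.95), *Hmox1* at the upper left (-0.71, 1.63), and most ATF4 genes lie at the lower left (*Trib3* at -2.82, -2.94).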

How the data were processed

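Single-cell libraries of iWAT_DFAT, eWAT_DFAT, iWAT_SVF and eWAT_SVF cells were analysed, 1 library per condition, grouped by the labels. The authors sorted live cells, used the 10x 3′ v3.1 kit and ran Cell Ranger, version 7.0.0 per the labels, on mm10. The paper gives the same version, with intron reads counted, and names no library as an exception. The file headers read 7.1.0 for 3 libraries and 4 for iWAT_SVF. The deposited matrices hold UMI counts per gene and barcode, not normalized and not filtered for cells, and 0 columns of other samples. UMIs of genes with over 100 kb of intron, which rise where introns are counted, were 8.56% of the total in iWAT_SVF and 8.28% to 10.4% in the others. Why the header of iWAT_SVF differs is not given in the sources used here. If that library was counted otherwise, every ratio with iWAT_SVF could be affected, above all for genes with long introns such as *Slc7a11*. Each library held 211396227 to 242282812 UMIs, of which 183664704 to 199357348 lay in the cells kept, so that 3 UMIs correspond to 0.0150 to 0.0163 CPM of the cells.

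Cells had 5000 to 75000 UMIs, 200 to 7500 genes and under 10% mitochondrial UMIs; doublets were kept. Counts were summed per library and divided by the total of its cells (CPM). With 1 library per condition no edgeR test or other test was run and no p-value is given; Poisson, exact binomial and conditional binomial intervals (95%) cover counting error only. A gene entered a comparison if it reached 5 CPM in at least 1 of its libraries. The members and lists were chosen with earlier results of these data known. Besides the members, from each list the 2 genes with the largest absolute log2 ratio of each comparison could be named, and the 3 genes most like a member (10 for the sum of targets) by r over cells; 1 such gene is not reported here. Lists were regulators, glutathione, transferases, thioredoxin, NADPH, detoxification, heme and iron, and ATF4. Counts of *Gstp1* and other near-identical copies are uncertain; such genes entered the counts of their list but are not described. Alternatives were other cell filters, removal of high Scrublet scores, subtraction of free RNA, TMM, means over cells, cell subsets, a depth range, a fold of 2 and other thinning. Scripts were tested on simulated data. The tools were R 4.3.3 with edgeR 4.0.16 (TMM only) and Python 3.11.15 with scanpy 1.11.5, pandas 2.3.3, matplotlib 3.10.9, scipy 1.17.1 and numpy 2.4.6.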

Additional observations from a re-analysis of the deposited data

Results flagged for a closer look

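The ratio of DFAT over SVF cells had opposite signs in the 2 depots for *Hmox1*, with a log2 ratio of -0.71 in iWAT and 1.63 in eWAT, a difference of -2.34. The ratio of iWAT over eWAT had opposite signs in DFAT and in SVF cells for the other 6 targets. For *Txnrd1* it was -1.14 in DFAT and 0.73 in SVF cells, a difference of -1.86 on the log2 scale. For *Gclm* it was -1.51 and 0.14, a difference of -1.65. For *Nqo1* the difference was -1.17, for *Srxn1* -0.97, for *Slc7a11* -0.87 and for *Gclc* -0.67. These differences were not tested, since each rests on 4 libraries with 1 per condition. The SVF ratios of *Slc7a11* and *Gclm* and the DFAT ratio of *Gclc* lay within the middle 50% of all genes.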

How the results depend on the processing

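With a fold of 2 in place of 1.5, 0 of the genes (1 before) were lower in iWAT_DFAT than in iWAT_SVF, 3 (6 before) lower in iWAT_DFAT than in eWAT_DFAT and 0 (1 before) higher in iWAT_SVF than in eWAT_SVF. Without cells with G2 and M phase markers, 1 (0 before) was higher in iWAT_DFAT than in eWAT_DFAT and 3 (1 before) higher in iWAT_SVF than in eWAT_SVF; the cause was not tested. The 6 genes higher in iWAT_DFAT than in iWAT_SVF were 5 under 6 settings, *Txnrd1* dropping out, and 4 at a fold of 2. The shares of all genes under these other settings are not given, so nothing is read from these counts about the set. Of 360 log2 ratios recomputed under 10 settings 351 kept their sign, and the 9 that did not were of *Gclm*, *Keap1* and *Hmox1*, with 0 of them past 1.5-fold on both sides. TMM scaling lowered every ratio of eWAT_DFAT over eWAT_SVF by 0.17 and of iWAT_SVF over eWAT_SVF by 0.10 on the log2 scale. The widest shift was that of *Hmox1* between iWAT_DFAT and iWAT_SVF, from -0.71 to -1.25 without cells with G2 and M phase markers. No paired analysis was possible because each condition had 1 library and the labels carry no replicate numbers; a fit with the depot as a block would treat the depots as replicates of each other and was not run. Differences between cultures were not measured, and deeper sequencing would not show them.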
